A study of Mus musculus with 4 samples.

Results

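Interferon-stimulated genes and interferon regulatory factors were examined in RNA-seq of reconstituted ovaries (rOvaries) from recipient mice treated with or without INK128. The 60 genes were chosen by name from 54021 gene symbols in the counts. The names Irf, Ifit, Ifitm, Oas or Gbp followed by a digit gave 47 symbols (12 Gbp, 6 Ifit, 7 Ifitm, 9 Irf, 3 Irf2bp and 10 Oas), and a further 13 were listed by symbol (Isg15, Mx1, Mx2, Rsad2, Bst2, Usp18, Ifih1, Ddx58, Eif2ak2, Zbp1, Ifi35, Ifi44 and Xaf1). The rule uses names alone, although the list was drawn up with earlier results of these data known. Of these genes, 32 averaged above 10 CPM (counts scaled to library size, with TMM factors of edgeR) over the 4 libraries, 20 averaged from 1 to 10 CPM, and 8 averaged below 1 CPM. The last 8 were Gbp11, Ifit1bl1, Ifitm5, Ifitm7, Ifitm10, Oas1g, Mx1 and the pseudogene Gbp2-ps, which had no count in any library, and the other 7 had at most 2.61 CPM in any library. They averaged too low for the main tests, which took genes above 10 or above 1 CPM.

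rOvaries are grafts that grow beneath the kidney capsule after primordial germ cells are aggregated with somatic cells of fetal female gonads, and the study's donors included C57BL/6 mice carrying actin-GFP. All recipients were ovariectomized female second-generation Terc-/- mice on a C57BL/6 background, which lack telomerase RNA, and the methods give their age as an average of 10 weeks at transplantation. INK128, an inhibitor of the mTOR kinase in both of its complexes, was given in the drinking water at 0.75 uM per g according to the labels (the methods state another figure, per litre of water), and the controls were the group without INK128. The rOvaries were collected 1 month after transplantation, and the series holds 2 INK128 libraries (replicates 1 and 2) and 2 Control libraries (replicates 1 and 3). The labels do not say that the libraries came from separate animals, so p-values measure only the spread between these samples. An exact two-sided permutation test of 2 against 2 samples has 0.333 as its smallest p, so models fitted across all genes supplied the p-values below.

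Interferons are secreted signalling proteins that cells release on sensing foreign or misplaced nucleic acid. They bind paired receptors at the cell surface, which activate Janus kinases and transcription factors of the STAT family. STAT proteins join IRF9 and bind the interferon-stimulated response element (ISRE), while STAT dimers bind the GAS element. The target genes include the guanylate-binding proteins (Gbp), the Ifit proteins that bind viral RNA, the Ifitm membrane proteins, and Oas sensors of double-stranded RNA. In the mouse several Oas1 genes are known to be expressed in oocytes.

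Counts summed to between 19130209 and 23029089 per library. Over the 11758 genes with a mean above 10 CPM, 1.0% lay more than 2-fold apart between the INK128 libraries and 13.8% between the Control libraries. Among the 32 genes of the list above 10 CPM, 1 (3.12%) lay more than 2-fold apart between the INK128 libraries and 10 (31.2%) between the Control libraries. The Control libraries each stood apart in another way. Control 1 held 45.2 CPM summed over 4 Y-linked genes, against at most 0.107 CPM in the other libraries, although the donor gonads were stated to be female. Control 3 held 69.6 CPM summed over 14 oocyte markers, against 974 to 1430 CPM in the other 3 libraries. The 12 markers of granulosa cells were high in all 4 libraries. They summed to 7650 and 9810 CPM in the INK128 libraries and to 4460 and 7980 CPM in Control 1 and Control 3. The sums overlapped between the groups, as did 8 of the 12 markers. Foxl2 did not, at 371 and 368 CPM in the INK128 libraries and at 146 and 276 CPM in Control 1 and Control 3. Kidney markers, of the host tissue that lies against the graft, summed to 139 and 264 CPM in the INK128 libraries and to 1180 and 2240 CPM in Control 1 and Control 3. In bulk tissue, fewer cells of a type and less RNA per cell cannot be told apart.

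Between the INK128 and Control libraries the list did not move as a whole. Of the 10 guanylate-binding protein genes tested, 9 were lower in both INK128 libraries than in both controls, the Ifitm genes and Bst2 were mostly higher, 7 of the 9 interferon regulatory factors had a log2 fold change below 0 with none called, and the Oas genes were split into a group seen with oocyte transcripts and a group that was lower with INK128. With edgeR's quasi-likelihood test and Benjamini-Hochberg adjustment, 1 of the 32 genes above 10 CPM, Gbp9, was called lower (adjusted p under 0.05 with a change of over 1.5-fold), and none was called higher, where 6.37% of all genes tested were called (3.18% higher and 3.19% lower). By the unadjusted edgeR p, 4 of the 32 were higher and 12 were lower under 0.05 (17.7% and 18.7% of all genes). With DESeq2, 3 were called higher and 9 lower (28.6% of all genes, 13.6% higher and 15.1% lower), and with limma voom none was called, as 0.0% of all genes were. Over the 52 genes of the list above 1 CPM, edgeR called none, as it called 0.0% of the 17631 genes tested there, and 5 were higher and 17 lower by the unadjusted p (15.1% and 17.8% of all genes). DESeq2 called 3 of the 52 higher and 13 lower, against 10.2% and 13.6% of all those genes (23.8% in all).

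Both INK128 libraries lay above both Control libraries in 12 of the 32 genes and below both in 17, so that the groups overlapped in 3, whereas 68.5% of all genes above 10 CPM did not overlap (34.5% higher and 34.0% lower). In the 52 genes above 1 CPM, 14 were higher and 29 lower without overlap, against 30.9% and 35.3% of all genes (66.1% in all). The median log2 fold change was -0.37 over the 32 genes and -0.58 over the 52, beside -0.03 and -0.04 over all genes tested. It was below 0 in 19 of the 32 (51.4% of all genes) and in 33 of the 52 (51.8%), and above 0 in 13 and 19 (48.6% and 48.2%). The medians moved with the choice of control library and with the genes that then passed the filter. Of the 32 genes, 22 were higher in Control 3 than in Control 1 (51.0% of all genes were). Without Control 3 the medians were -0.01 over 28 genes and -0.31 over 48. Without Control 1 they were -0.43 over 32 genes and -0.74 over 50. The filter was applied to the libraries kept, so these medians are over different genes. Without Control 3, Gbp4, Gbp5, Gbp6, Ifit3 and Rsad2, all below 0 in the main fit, no longer averaged above 10 CPM. Against single Control libraries, both INK128 libraries lay below Control 1 in 17 of the 32 genes and below Control 3 in 19 (44.6% and 45.1% of all genes), and above them in 13 and 12 (45% and 45.8%).

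**Figure D1:**
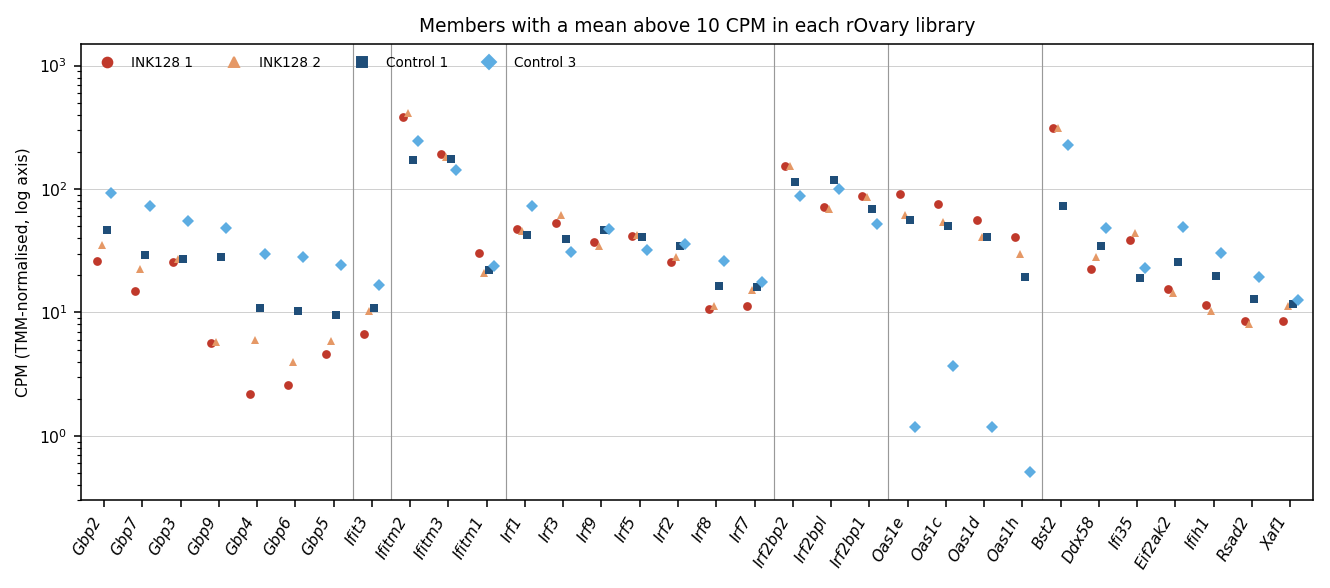
TMM-normalised CPM on a log axis for the 32 genes of the list with a mean above 10 CPM, ordered by family and then by mean, with 1 point for each library. The Gbp genes other than Gbp3 lie lowest in the INK128 libraries, and 4 Oas1 genes are at 0.506 to 3.67 CPM in Control 3 alone.

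Promoter sequences were read to show which response elements these genes carry, since the list holds targets of interferon as well as regulators that are expressed without it. The RefSeq promoter table (GRCm38.p6) held 44 of the 60 genes by symbol. In the 250 bases before any listed start, the ISRE, spelled as GAAA, any 2 bases and GAAA and searched on both strands, was present in 19 of the 44 (43.2%), against 3.46% of the 27025 genes in the table. A stricter form, in which CT follows and which is a subset of the first, was present in 12 (27.3%), against 0.255%. The GAS element, TTC, any 3 bases and GAA, whose spelling is its own reverse complement, was present in 11 (25.0%), against 8.13%, and an NF-kB site, GGG, any 3 bases and TTCC on both strands, in 8 (18.2%), against 5.31%. The ISRE was found in 5 of the 5 Gbp promoters in the table, 5 of 6 Ifit promoters and 4 of 6 Oas promoters. Those 5 Gbp genes all lie on chromosome 3. The promoter table held no Gbp gene of chromosome 5 by symbol, so Gbp4, Gbp6, Gbp8, Gbp9 and Gbp10 were not searched. It was found in 1 of 7 Ifitm promoters, 1 of 8 Irf promoters and none of the 3 Irf2bp promoters. By direction, 10 of 20 promoters of tested genes that lay lower without overlap held the ISRE, as did 3 of 12 that lay higher and 4 of 7 that overlapped. The following 60-base stretches lie outside the annotated exons and are printed 5′ to 3′ on the gene's strand, with every ISRE in capitals, where TTTC letters mark an element that reads on the opposite strand. The first 4 belong to genes that were lower in both INK128 libraries, the next 4 to genes that were higher in both or overlapped, and the last to an Oas1 gene seen with oocyte transcripts.
Gbp5, chr3:142496744-142496803, plus strand: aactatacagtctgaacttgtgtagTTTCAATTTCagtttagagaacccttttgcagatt
Gbp7, chr3:142530258-142530317, plus strand: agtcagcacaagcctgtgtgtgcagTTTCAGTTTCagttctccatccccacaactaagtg
Ifit3, chr19:34583365-34583424, plus strand: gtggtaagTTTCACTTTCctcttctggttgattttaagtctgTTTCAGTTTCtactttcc
Oas3, chr5:120777700-120777759, minus strand: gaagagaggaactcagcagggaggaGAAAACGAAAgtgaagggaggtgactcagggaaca
Ifitm2, chr7:140955988-140956047, minus strand: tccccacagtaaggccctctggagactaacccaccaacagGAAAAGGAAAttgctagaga
Bst2, chr8:71537565-71537624, minus strand: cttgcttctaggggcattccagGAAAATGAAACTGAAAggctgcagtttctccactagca
Isg15, chr4:156200856-156200915, minus strand: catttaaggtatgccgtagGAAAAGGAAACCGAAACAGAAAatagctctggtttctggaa
Ifit1, chr19:34640770-34640829, plus strand: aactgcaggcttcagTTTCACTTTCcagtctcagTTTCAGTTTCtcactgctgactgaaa
Oas1c, chr5:120812575-120812634, minus strand: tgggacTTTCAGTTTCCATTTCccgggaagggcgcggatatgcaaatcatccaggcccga
In Bst2, Isg15 and Oas1c the elements overlap each other, so that 1 run of capitals holds 2 elements in Bst2 and Oas1c and 3 in Isg15. The Ifit1 stretch also serves Ifit1bl2, which is transcribed in the other direction from the same region. A match is a description of the letters, and binding was not measured here.

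The guanylate-binding proteins are large GTPases that assemble on the membranes of intracellular pathogens, and their genes lie in clusters on chromosomes 3 and 5. All 10 Gbp genes tested had a log2 fold change below 0, with a median of -2.09, and 9 were lower in both INK128 libraries than in both Control libraries, where 51.8% of all genes above 1 CPM were below 0 and 35.3% were lower without overlap. The median was -2.68 over the 5 genes tested on chromosome 5 and -1.41 over the 5 on chromosome 3. The Gbp median stayed below 0 under each normalization, test, filter and left-out library tried, and for those above 10 CPM lay between -0.65 without Control 3 and -2.22 without Control 1. The filter was applied to the libraries kept, so that the first is over 4 genes (Gbp2, Gbp3, Gbp7 and Gbp9) and the second over 7, and above 1 CPM the medians were -1.09 and -2.76.

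On chromosome 5, Gbp9 (GENCODE on mm10, chr5:105077630-105139539, minus strand) had 5.69 and 5.80 CPM in the INK128 libraries and 27.9 and 48.7 CPM in Control 1 and Control 3. It fell (log2 fold change -2.74, standard error 0.36, edgeR adjusted p = 0.0464) and averaged 6.67-fold more in controls. The log2 fold change was between -2.66 and -2.74 with limma voom (adjusted p = 0.081), with length offsets (edgeR adjusted p = 0.075), without INK128 1 or INK128 2 (edgeR adjusted p = 0.371 and 0.431) and in the fit over genes above 1 CPM (edgeR adjusted p = 0.0555), and in each of these 0.0% of all genes tested were called. The INK128 libraries nearly coincided, and Control 3 was 1.74 times Control 1. Gbp4 had 2.20 and 5.98 CPM with INK128 and 10.9 and 30.0 CPM in controls (log2 fold change -2.32, standard error 0.74, edgeR adjusted p = 0.103). Gbp6 had 2.58 and 4.0 CPM with INK128 and 10.3 and 28.2 CPM in controls (log2 fold change -2.54, standard error 0.61, edgeR adjusted p = 0.0654). For both genes the groups did not overlap, and Control 3 was more than 2-fold above Control 1. The other 2 genes tested on this chromosome were low. Gbp8 had 0.322 and 0.874 CPM with INK128 and 9.43 and 8.14 CPM in controls, and its log2 fold change was -3.80 (standard error 0.63, edgeR adjusted p = 0.0558 among genes above 1 CPM). Gbp10 had 1 and 5 counts with INK128 and 42 and 78 counts in controls, and its log2 fold change was -4.05 (standard error 0.91, edgeR adjusted p = 0.0685). In Gbp8 the Control libraries were close to each other and both were far above the INK128 libraries. Of the 50-base stretches of the longest Gbp10 transcript, 42.9% also occur in Gbp6, and 46.3% of the exonic bases of Gbp10 and 29.0% of those of Gbp6 lie under exons of Gm43302 on the same strand, so their counts are uncertain. For Gbp9 the overlap with other exons was 1.16%.

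On chromosome 3, Gbp2 had 26.0 and 34.9 CPM with INK128 and 46.7 and 92.9 CPM in controls (log2 fold change -1.20, standard error 0.39, edgeR adjusted p = 0.109). Gbp7 had 14.8 and 22.3 CPM with INK128 and 29.1 and 73.0 CPM in controls (log2 fold change -1.46, standard error 0.52, edgeR adjusted p = 0.122). In both genes Control 1 lay between the INK128 libraries and Control 3. Gbp5, whose protein promotes inflammasome activation, had 4.62 and 5.84 CPM with INK128 and 9.56 and 24.2 CPM in controls (log2 fold change -1.69, standard error 0.54, edgeR adjusted p = 0.102). Gbp3 had 25.8 and 27.0 CPM with INK128 and 27.0 and 55.2 CPM in controls (log2 fold change -0.64, standard error 0.39, edgeR adjusted p = 0.289). Its groups overlapped, since Control 1 was at the level of the INK128 libraries. Gbp2b had 0.429 and 0.414 CPM with INK128 and 0.443 and 2.87 CPM in controls (log2 fold change -1.91, standard error 1.06, edgeR adjusted p = 0.270). Only Control 3 stood above the other libraries for Gbp2b.

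**Figure D2:**
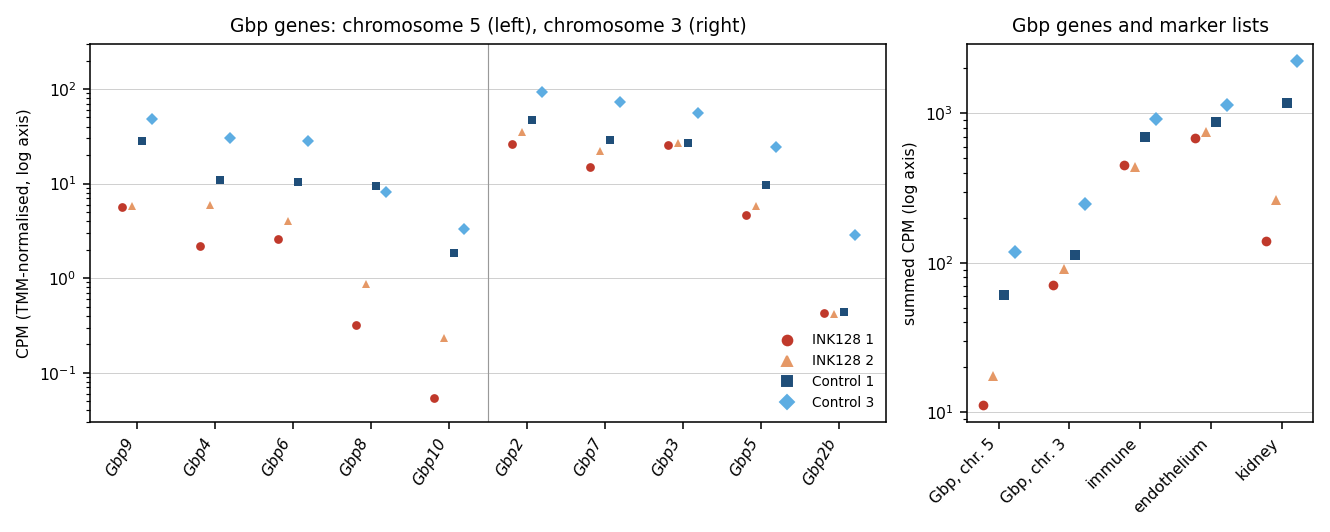
Left, CPM on a log axis of the 10 Gbp genes tested in each library, those on chromosome 5 first; right, summed CPM on a log axis of the Gbp genes by chromosome and of marker lists for immune cells, endothelium and kidney. The chromosome 5 sum is 11.2 and 17.5 in the INK128 libraries and 60.9 and 119 in the controls, and the kidney markers take the same order of libraries.

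The summed markers of kidney, immune cells and endothelium were also lower in both INK128 libraries. Summed CPM of the Gbp genes on chromosome 5 was 11.2 and 17.5 in the INK128 libraries and 60.9 and 119 in Control 1 and Control 3. The 25 kidney markers summed to 139, 264, 1180 and 2240 CPM in the same order, 19 of the 19 tested above 10 CPM were lower in both INK128 libraries (34.0% of all genes), and 9 of them were called lower by edgeR (3.19% of all genes). Lrp2, the megalin receptor of the proximal tubule, had 3.06 and 4.14 CPM with INK128 and 51.1 and 97.7 CPM in controls, and Umod, of the thick ascending limb, had 0.376 and 0.506 CPM against 6.07 and 54.7 CPM. The most abundant kidney markers, Slc34a1, Miox and Kap, were also lower in both INK128 libraries. The 30 markers of macrophages, dendritic cells, granulocytes and lymphocytes summed to 451 and 438 CPM with INK128 and to 696 and 917 CPM in controls, with 9 of 11 tested above 10 CPM lower without overlap (34.0% of all genes) and none called by edgeR (3.19% of all genes were called lower). Of the 11, 7 were lower at an unadjusted edgeR p below 0.05 and 7 by DESeq2 (18.7% and 15.1% of all genes). Ptprc (CD45) had 7.84 and 6.90 CPM with INK128 and 9.43 and 46.8 CPM in controls, and Adgre1 (F4/80) had 5.80 and 8.79 CPM against 16.8 and 31.2 CPM. Cd3e, of T cells, had at most 6.24 CPM, in Control 3. Lyz2, C1qa and C1qb were the most abundant, and C1qa overlapped between the groups (82.1 and 66.1 CPM against 81.1 and 94.3 CPM). The 14 endothelial markers summed to 688 and 755 CPM with INK128 and to 872 and 1140 CPM in controls. This list was mixed, since of 13 tested above 10 CPM 6 were lower and 3 higher without overlap (34.0% and 34.5% of all genes) and 4 overlapped. Kdr, Flt4 and Lyve1 were called lower by edgeR among them (3.19% of all genes), whereas Eng, Cdh5 and Pecam1, the most abundant, were not. The part of these cells in the Gbp result was not tested.

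The Ifit proteins recognise viral RNA by its 5′ end. Of the 5 Ifit genes tested, 4 had a log2 fold change below 0, with a median of -0.64 over the 5, and 3 were lower in both INK128 libraries than in both controls (51.8% and 35.3% of all genes above 1 CPM). Ifit3 had 6.71 and 10.3 CPM with INK128 and 10.8 and 16.8 CPM in controls (log2 fold change -0.70, standard error 0.40, edgeR adjusted p = 0.265). Its neighbouring copy Ifit3b had a log2 fold change of -0.77, and 51.2% of the 50-base stretches of Ifit3 also occur in Ifit3b, so reads could have been assigned to either. Ifit2 had a log2 fold change of -1.30 (standard error 0.54, edgeR adjusted p = 0.173). Ifit1, at -0.21, overlapped between the groups and had the opposite sign without INK128 1. Ifit1bl2, which shares the promoter stretch printed above with Ifit1, had 0.506 CPM in Control 3 and from 8.69 to 13.6 CPM in the other 3 libraries, so that only Control 3 was low. Its log2 fold change of 0.49 became -0.47 without Control 3.

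The Ifitm proteins block the fusion of viruses with cell membranes, and Ifitm1 and Ifitm3 are also known from primordial germ cells. Per length Ifitm2 and Ifitm3 had the highest levels of the list, with a mean RPKM (CPM divided by exon length in kilobases) of 464 and 255, followed by Bst2 at 254. Ifitm2 had 386 and 414 CPM with INK128 and 172 and 244 CPM in controls (log2 fold change 0.94, standard error 0.24, edgeR adjusted p = 0.0703). Ifitm3 had 192 and 183 CPM with INK128 and 175 and 142 CPM in controls (log2 fold change 0.24, standard error 0.19, edgeR adjusted p = 0.398). Both were higher in each INK128 library than in each control, by a small margin for Ifitm3. Ifitm1 had 30.1 and 20.8 CPM with INK128 and 22.0 and 24.0 CPM in controls, and the groups overlapped (log2 fold change 0.15, standard error 0.27, edgeR adjusted p = 0.711). Ifitm6 had 4.29 and 4.74 CPM with INK128 and 2.88 and 0.548 CPM in controls (log2 fold change 1.45, standard error 0.86, edgeR adjusted p = 0.291). All 4 had a log2 fold change above 0, except that with offsets for transcript length Ifitm1 came to -0.58 and Ifitm3 to -0.53, while Ifitm2 came to 0.16 (edgeR adjusted p = 0.720), and without INK128 1 Ifitm1 came to -0.14. The exons of Ifitm2 span 655 bases and those of Ifitm3 678 bases, and 40.9% of the exonic bases of Ifitm2 lie under exons of Gm45717.

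The interferon regulatory factors are transcription factors that switch on interferon genes and their targets. All 9 Irf genes were tested, 2 had a log2 fold change above 0 and 7 below, with a median of -0.34, while 51.8% of all genes above 1 CPM were below 0. EdgeR called none, as it called 0.0% of all genes there, 1 was higher and 2 were lower by the unadjusted p under 0.05 (15.1% and 17.8% of all genes), and DESeq2 called 1 lower (13.6% of all genes). Irf3, which is activated by the sensors of nucleic acid, had 52.8 and 61.2 CPM with INK128 and 39.7 and 30.8 CPM in controls (log2 fold change 0.69, standard error 0.22, edgeR adjusted p = 0.0998). Irf5, a factor of macrophages and dendritic cells, had 41.7 and 42.6 CPM with INK128 and 41.0 and 32.0 CPM in controls (log2 fold change 0.21, standard error 0.21, edgeR adjusted p = 0.501), and its sign turned with length offsets, to -0.08. For Irf3 the groups were apart, and for Irf5 the INK128 libraries were barely above Control 1. Irf1, the factor induced by interferon gamma, had 47.1 and 46.1 CPM with INK128 and 42.8 and 73.1 CPM in controls, so that only Control 3 was high, and its log2 fold change was -0.31 (standard error 0.30, edgeR adjusted p = 0.481), or 0.11 without Control 3.

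The remaining factors had a log2 fold change below 0. Irf9, the DNA-binding partner of STAT proteins, had 37.0 and 34.3 CPM with INK128 and 46.2 and 47.6 CPM in controls (log2 fold change -0.39, standard error 0.18, edgeR adjusted p = 0.182). Irf2, a repressor of IRF1 targets, had 25.4 and 28.4 CPM against 34.8 and 36.0 CPM (log2 fold change -0.39, standard error 0.19, edgeR adjusted p = 0.211). Irf7, the amplifier of the type I response, had 11.3 and 15.3 CPM against 16.2 and 17.5 CPM (log2 fold change -0.34, standard error 0.29, edgeR adjusted p = 0.428). In these 3 genes the groups did not overlap, as in 68.5% of all genes above 10 CPM, and the Control libraries were close to each other. Irf8, a factor of myeloid cells, had 10.7 and 11.2 CPM with INK128 and 16.3 and 26.3 CPM in controls (log2 fold change -0.96, standard error 0.33, edgeR adjusted p = 0.118). Irf4, of lymphocytes, overlapped between the groups (log2 fold change -1.21, standard error 0.90, edgeR adjusted p = 0.386). The immune marker sums given above were lower in the INK128 libraries as well, and their part in the Irf8 level was not tested.

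The 3 Irf2bp genes, which the naming rule takes in, encode corepressors that bind IRF2 and are not known as interferon targets. Irf2bp2 had 154 and 153 CPM with INK128 and 113 and 87.3 CPM in controls (log2 fold change 0.62, standard error 0.20, edgeR adjusted p = 0.107). Irf2bp1 had 87.4 and 85.4 CPM against 69.1 and 52.3 CPM (log2 fold change 0.51, standard error 0.21, edgeR adjusted p = 0.152). Irf2bpl went the other way, with 71.8 and 69.0 CPM with INK128 and 118 and 100 CPM in controls (log2 fold change -0.64, standard error 0.17, edgeR adjusted p = 0.0805). In all 3 the groups did not overlap, as in 68.5% of all genes above 10 CPM, and the INK128 libraries were close to each other. Exons of a gene on the opposite strand, Gm26759, cover 20.5% of Irf2bp2, and with a kit that does not mark strand such reads cannot be told apart.

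**Figure D3:**
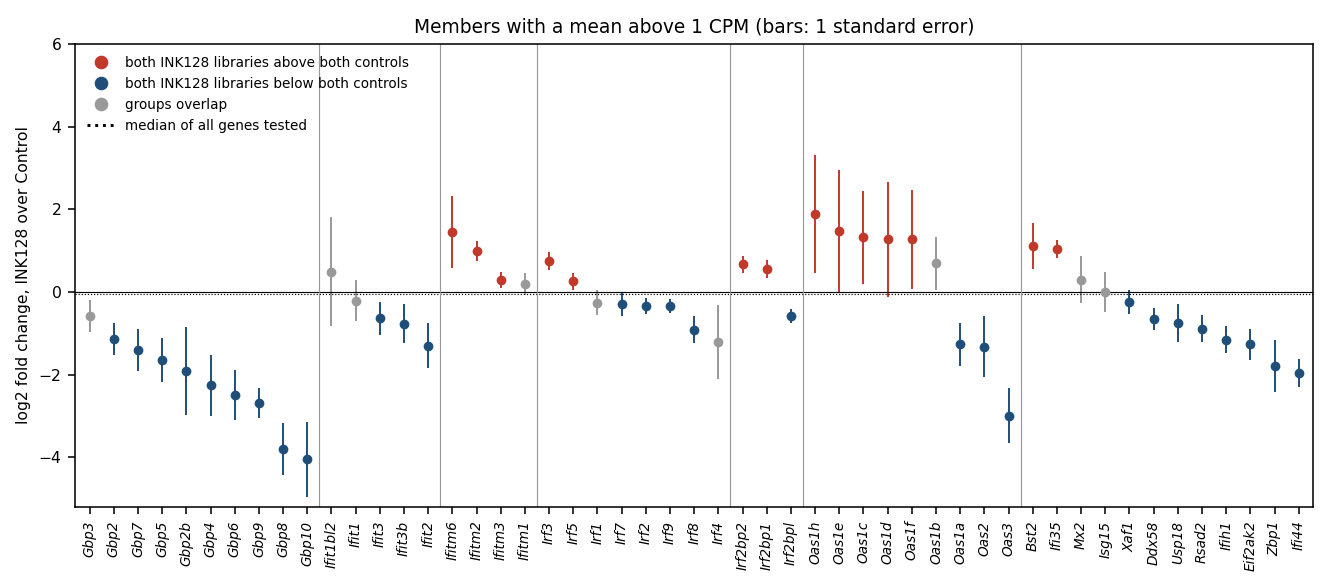
Log2 fold change (INK128 over Control, edgeR, fit over genes above 1 CPM) of the tested genes reported here, by family, with bars of 1 standard error and the median of all genes as a dotted line. The Gbp genes lie below 0, the Ifitm genes at or above 0, and Oas1c, Oas1d, Oas1e and Oas1h lie above 0 with bars of more than 1 log2 unit.

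The Oas proteins are named for sensors of double-stranded RNA, and those with enzyme activity make oligoadenylates that activate RNase L. Of the 9 Oas genes tested, 6 had a log2 fold change above 0 and 3 below (48.2% and 51.8% of all genes above 1 CPM). Oas1e had 91.1 and 62.1 CPM in the INK128 libraries, 55.8 CPM in Control 1 and 1.18 CPM in Control 3. Oas1c had 75.9, 53.6, 50.2 and 3.67 CPM in the same order, Oas1d 56.3, 40.6, 40.6 and 1.18 CPM, and Oas1h 40.7, 29.9, 19.2 and 0.506 CPM. Control 1 was close to INK128 2 in Oas1c, Oas1d and Oas1e and lower in Oas1h, and in all 4 genes Control 3 was 13.7 to 47.2 times lower than Control 1, while 1.45% of all genes above 10 CPM differed more than 10-fold in that direction. Their log2 fold changes were 1.43 for Oas1e, 1.27 for Oas1c, 1.22 for Oas1d and 1.84 for Oas1h, with standard errors from 1.14 to 1.5 and edgeR adjusted p from 0.391 to 0.554. They lay between 0.24 and 6.09 when a library was left out, the lowest values without Control 3 and the highest without Control 1. Leaving out a Control library leaves the spread to the INK128 pair, and 45.7% of all genes were then called without Control 1 and 42.7% without Control 3. Without Control 1 all 4 had edgeR adjusted p from 1.5e-06 to 4.44e-06, and without Control 3 only Oas1h passed the threshold (log2 fold change 0.86, edgeR adjusted p = 0.0128). Oas1f, at 1.23 and 1.75 CPM with INK128 and 1.20 and 0.0843 CPM in controls, was also lowest in Control 3.

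Most oocyte markers were also lowest in Control 3. Gdf9, a growth factor secreted by oocytes, had 454 and 264 CPM with INK128, 256 CPM in Control 1 and 7.13 CPM in Control 3. Zp3, of the egg coat, had 171, 151, 130 and 3.33 CPM in the same order, Zp2 143, 145, 141 and 4.09 CPM, and the germ cell helicase gene Ddx4 7.94, 5.06, 4.60 and 0.633 CPM. The 4 Oas1 genes together had 264, 186, 166 and 6.54 CPM, which came to 18.5%, 18.1%, 17.0% and 9.39% of the summed CPM of the 14 oocyte markers. The median log2 fold change of the 14 oocyte markers was 1.30, and none was called by edgeR or DESeq2 or had an unadjusted edgeR p below 0.05. The part of oocyte number in the Oas1 levels was not tested.

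**Figure D4:**
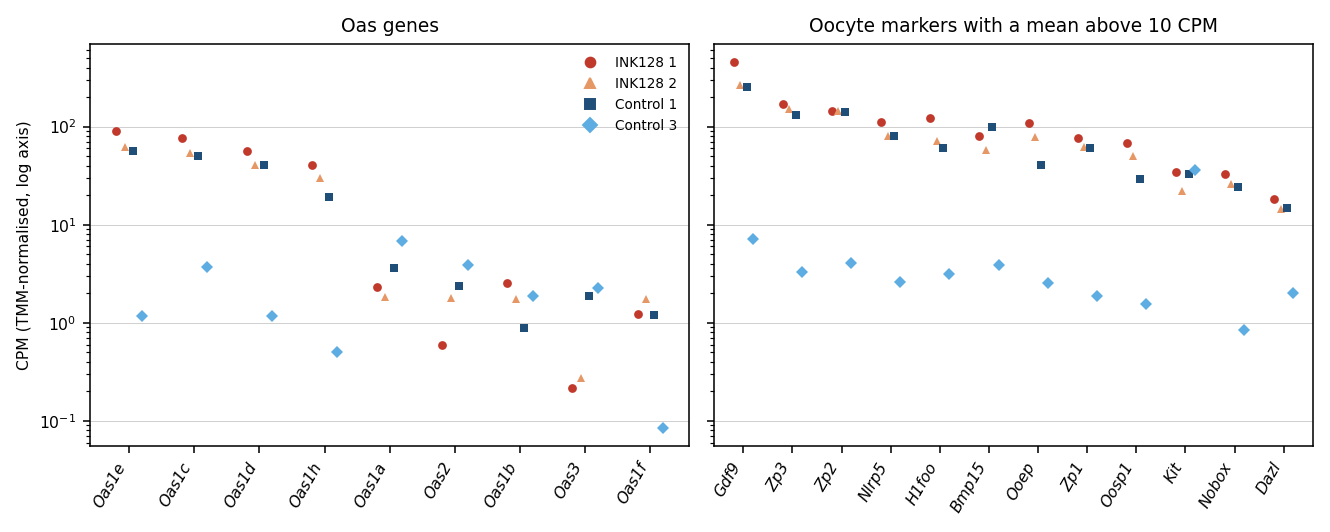
CPM on a log axis in each library of the 9 Oas genes tested (left) and of the 12 oocyte markers with a mean above 10 CPM (right). Oas1e, Oas1c, Oas1d and Oas1h drop in Control 3 along with every oocyte marker shown except Kit, whereas Oas1a, Oas2 and Oas3 are highest in Control 3.

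Oas3, Oas1a and Oas2 were lower in both INK128 libraries, with none called by edgeR. Oas3 had 0.215 and 0.276 CPM with INK128 and 1.86 and 2.28 CPM in controls (log2 fold change -2.99, standard error 0.66, edgeR adjusted p = 0.0669), and both Control libraries were well above both INK128 libraries. Oas1a had a log2 fold change of -1.27 and Oas2 of -1.32, with edgeR adjusted p of 0.173 and 0.273. Oas1a shares 56.9% of its 50-base stretches with Oas1g. Oas1b, known for flavivirus resistance but annotated by GENCODE as a polymorphic pseudogene, overlapped between the groups (log2 fold change 0.69, standard error 0.65, edgeR adjusted p = 0.487).

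Among the listed effectors and sensors, Bst2 and Ifi35 were higher in both INK128 libraries, with neither called by edgeR. Bst2 (tetherin), which holds budding viruses at the cell surface, had 310 and 310 CPM with INK128, 72.5 CPM in Control 1 and 226 CPM in Control 3. The INK128 libraries were equal to 3 digits, and the Control libraries were 3.12-fold apart. Its log2 fold change was 1.06 (standard error 0.56, edgeR adjusted p = 0.236), and lay between 0.44 without Control 1 and 2.08 without Control 3. Ifi35, a partner of the interferon-induced factor NMI, had 38.3 and 43.8 CPM with INK128 and 19.0 and 22.8 CPM in controls (log2 fold change 0.97, standard error 0.22, edgeR adjusted p = 0.0592). With length offsets the log2 fold changes were 0.27 for Bst2 and 0.38 for Ifi35. Exons on the opposite strand cover 16.8% of Ifi35.

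Eif2ak2, Ifih1 and Ddx58, which bind double-stranded RNA inside the cell, were lower in both INK128 libraries than in both controls, with none called by edgeR, whereas the related Dhx58 (LGP2), outside the list, overlapped (log2 fold change 0.04). Eif2ak2 (PKR), a kinase that stops translation, had 15.5 and 14.4 CPM with INK128 and 25.4 and 49.3 CPM in controls (log2 fold change -1.32, standard error 0.38, edgeR adjusted p = 0.0848). Ifih1 (MDA5) had 11.6 and 10.2 CPM with INK128 and 19.9 and 30.5 CPM in controls (log2 fold change -1.21, standard error 0.32, edgeR adjusted p = 0.0748). Ddx58 (RIG-I) had 22.6 and 28.4 CPM with INK128 and 34.6 and 48.7 CPM in controls (log2 fold change -0.71, standard error 0.27, edgeR adjusted p = 0.137). In all 3 Control 3 was the highest. Rsad2 (viperin), an antiviral enzyme, had 8.59 and 8.05 CPM with INK128 and 12.8 and 19.3 CPM in controls (log2 fold change -0.95, standard error 0.33, edgeR adjusted p = 0.119), and Xaf1 had 8.59 and 11.3 CPM against 11.7 and 12.7 CPM (log2 fold change -0.29, standard error 0.30, edgeR adjusted p = 0.504).

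Among the listed genes below 10 CPM, Ifi44 and Zbp1 were furthest apart. Ifi44 had 2.95 and 3.54 CPM with INK128 and 12.4 and 13.8 CPM in controls (log2 fold change -1.96, standard error 0.33, edgeR adjusted p = 0.0558). Zbp1, a sensor of nucleic acid in the Z form, had 1.56 and 3.77 CPM with INK128 and 6.46 and 12.9 CPM in controls (log2 fold change -1.80, standard error 0.63, edgeR adjusted p = 0.132). For Ifi44 the libraries of each group were close, and for Zbp1 each group spread about 2-fold. Isg15, the ubiquitin-like modifier that is among the first genes induced by type I interferon, had a log2 fold change of 0.00 (standard error 0.48, edgeR adjusted p = 0.997), with Control 1 at 5.31 CPM below and Control 3 at 11.8 CPM above the INK128 libraries at 7.57 and 8.97 CPM. Usp18, which removes Isg15 from proteins, was at -0.75 and did not overlap. Mx2, of a family of antiviral GTPases but annotated by GENCODE as a polymorphic pseudogene, was at 0.30 and overlapped.

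Upstream of these genes, the interferons themselves were nearly absent. Of 21 interferon genes in the counts, 17 had no count in any library, Ifnb1 and all Ifna genes among them, and a count of 0 allows up to 3 counts, or 0.127 to 0.161 CPM, by counting error alone. Ifng had 0.0537 and 0.276 CPM with INK128 and 0.0885 and 0.633 CPM in controls, and Ifnz, Ifne and Ifnl3 had a count in some libraries. None averaged high enough for the main tests. The receptor chains were present in all libraries. Of the type I receptor, Ifnar1 had 86.1 and 85.5 CPM with INK128 and 94.4 and 114 CPM in controls (log2 fold change -0.28), and Ifnar2 had 69.8 and 70.5 CPM against 60.5 and 59.4 CPM (log2 fold change 0.23). Of the interferon gamma receptor, Ifngr1 had 80.4 and 94.4 CPM with INK128 and 53.0 and 78.1 CPM in controls (log2 fold change 0.42), and Ifngr2 had 108 and 123 CPM against 99.7 and 74.8 CPM (log2 fold change 0.40). None of these 4 was called, with edgeR adjusted p from 0.242 to 0.344, and none overlapped, as 68.5% of all genes did not. Il10rb had 38.1 and 36.1 CPM with INK128 and 63.4 and 57.9 CPM in controls (log2 fold change -0.71, edgeR adjusted p = 0.0663), and its partner in the lambda receptor, Ifnlr1, had at most 1.86 CPM.

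Of the signal transducers, Stat2, which joins IRF9, had 22.0 and 22.0 CPM with INK128 and 29.8 and 45 CPM in controls (log2 fold change -0.77, edgeR adjusted p = 0.123), and Stat3, which acts mainly downstream of interleukins, had 98.2 and 71.8 CPM against 240 and 174 CPM (log2 fold change -1.28, edgeR adjusted p = 0.0555). The kinases Jak1, Jak2 and Tyk2 were lower in both INK128 libraries, with log2 fold changes of -0.60, -0.81 and -0.69 and edgeR adjusted p from 0.108 to 0.193.

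**Figure D5:**
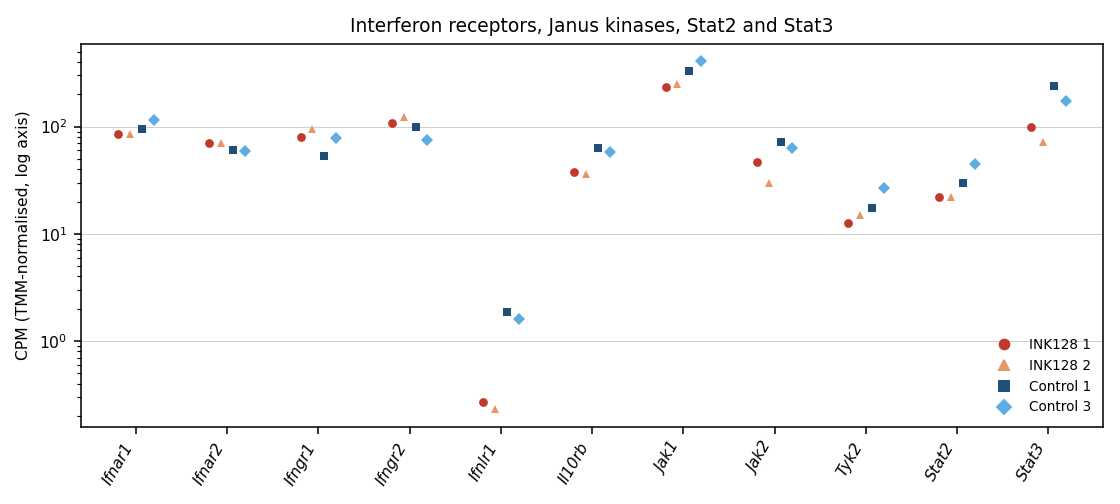
CPM on a log axis in each library of the interferon receptor chains, Janus kinases, Stat2 and Stat3. Stat3 is at 98.2 and 71.8 CPM in the INK128 libraries and at 240 and 174 CPM in the controls, while Ifnar1, Ifnar2, Ifngr1 and Ifngr2 lie between 53.0 and 123 CPM in every library.

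Of 20 sensors and adaptors that lead to interferon induction, 16 had a log2 fold change below 0 among genes above 1 CPM, 15 were lower without overlap and 2 higher (35.3% and 30.9% of all genes), and edgeR called none, as it called none of all genes there. By the unadjusted edgeR p under 0.05, 2 were higher and 9 lower (15.1% and 17.8% of all genes), and DESeq2 called 2 higher and 3 lower (10.2% and 13.6%). The higher ones were Mb21d1 (cGAS), the sensor of cytosolic DNA, and Trex1, the nuclease that removes such DNA. Mb21d1 had 26.5 and 46.1 CPM with INK128 and 9.21 and 5.14 CPM in controls (log2 fold change 2.34, standard error 0.45, edgeR adjusted p = 0.0516). The widest differences in the other direction were in the endosomal receptors Tlr9 and Tlr8, with log2 fold changes of -4.17 and -3.18 at levels of at most 5.82 CPM, followed by the DNA sensor Aim2 at -1.29. Of 11 negative regulators, 6 were below 0 and 5 above (51.8% and 48.2% of all genes), and edgeR called none, as it called 0.0% of all genes. At an unadjusted edgeR p below 0.05, 3 were lower, and DESeq2 called 2 lower (17.8% and 13.6% of all genes). Cish, Ptpn6 and Socs3, which restrain signalling by cytokine receptors, were at -1.38, -1.25 and -1.15, and Trim27 was at 0.64, all in the fit over genes above 1 CPM.

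Further interferon-stimulated genes, outside the naming rule, were mostly lower. Of 63 such genes 60 were tested above 1 CPM, of which 53 had a log2 fold change below 0 (51.8% of all genes), 44 were lower without overlap and 6 higher (35.3% and 30.9%), with a median of -0.95 (-0.04 over all genes). Above 10 CPM, 1 of 46, Rnf213, was called lower by edgeR (3.19% of all genes). By the unadjusted edgeR p under 0.05, 22 were lower and 3 higher (18.7% and 17.7% of all genes), and DESeq2 called 17 lower and 3 higher (15.1% and 13.6%). Rnf213, a large ubiquitin ligase, had 76.4 and 66.7 CPM with INK128 and 179 and 267 CPM in controls, and fell (log2 fold change -1.64, standard error 0.26, edgeR adjusted p = 0.0465). It was at -0.95 with length offsets (edgeR adjusted p = 0.0972) and at -1.59 in the fit over genes above 1 CPM (edgeR adjusted p = 0.0558), where 0.0% of all genes were called in either case. Cxcl9, a chemokine induced by interferon gamma, had 2.63 and 6.03 CPM with INK128 and 17.6 and 47.7 CPM in controls (log2 fold change -2.91, standard error 0.69, edgeR adjusted p = 0.0634). Both controls were above both INK128 libraries in each case. Ifi205, Gvin1 and the GTPase gene Tgtp1 were low and had log2 fold changes of -2.96, -2.80 and -2.73. In 54 of the 60 genes Control 3 was above Control 1, against 51.8% of all genes above 1 CPM.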

How the data were processed

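RNA-seq counts of 4 rOvary libraries were used. According to the methods and labels, library preparation used the NEBNext Ultra kit, and the authors ran Trimmomatic for trimming, Hisat2 for alignment to mm10 and featureCounts for counting by gene. The handling of reads with several alignments is not given in the sources used here. The authors deposited raw counts per gene symbol, neither normalized nor pooled. Groups came from the sample titles. The 60 genes and all lists were chosen with earlier results of these data known.

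CPM with TMM factors and the quasi-likelihood test came from edgeR 4.0.16 (R 4.3.3), with a mean CPM above 10 as the main filter and above 1 for low genes, Benjamini-Hochberg adjustment over all genes tested, and calls where the adjusted p was under 0.05 and the change over 1.5-fold. Values for genes above 10 CPM are from the first fit unless stated. Groups were said not to overlap where both INK128 libraries lay on 1 side of both controls. Standard errors were derived from the fold change and its F statistic. The alternatives used DESeq2 1.42.0 and limma 3.58.1. The scripts were tested on simulated counts. Named were all genes of the list above 10 CPM, the 8 widest differences between 1 and 10 CPM, the 4 widest of each pathway list, and the 3 most abundant and the defining markers of each cell type, apart from some genes that are not reported here and enter only the counts and sums of their lists. Depth limits counts to a floor of 3, or 0.127 to 0.161 CPM, which covers counting error only.

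All 60 symbols matched GENCODE release 21 (mm10), which gave positions and exon lengths, and 22 share exonic bases with another gene. Protein sequences were not used here, and transcripts were compared in place of proteins.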

Additional observations from a re-analysis of the deposited data

How the results depend on the processing

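For the genes above 10 CPM (0 higher and 1 lower by edgeR), DESeq2 called 3 higher and 9 lower, limma voom 0 lower (0.0% of all genes), a minimum of 10 CPM in 2 or more libraries 2 lower of 35 (7.02% of all genes lower), no filter beyond 1 count 2 higher and 12 lower of 59 (3.66% and 6.2% of all genes), and length offsets 0 lower (0.0% of all genes). Above 1 CPM (0 and 0), DESeq2 called 3 higher and 13 lower, the same minimum 2 lower, and no filter beyond 1 count 2 higher and 12 lower. With each library left out in turn, calls above 10 CPM ranged from 0 to 9 higher and from 0 to 14 lower, and above 1 CPM from 0 to 11 higher and from 0 to 25 lower. The most came without Control 1, where the lone Control 3 was assumed to vary like the INK128 pair and 45.7% and 45.4% of all genes were called, and none came without either INK128 library, where 0.0% of all genes were called. The median log2 fold change above 10 CPM was -0.49 with library totals (all genes -0.15) and -0.59 with no filter beyond 1 count. With a library left out it was from -0.53 to -0.01, and above 1 CPM from -0.83 to -0.31. The filter was applied anew to the libraries kept, so the genes differ between those medians. Genes lower without overlap numbered 33 of 59 with no filter beyond 1 count. Genes higher without overlap above 1 CPM numbered 9 of 52 with library totals. In the main fit above 1 CPM, 35.3% of all genes were lower and 30.9% higher without overlap, and the shares under the other settings were not computed. Gbp9 kept its direction under every alternative, with edgeR adjusted p of 0.075 with length offsets, 0.371 without INK128 1 and 0.431 without INK128 2, and 0.081 with limma voom.

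Signs turned with a library left out for Ifit1 (range -0.92 to 0.26, the last without INK128 1), Ifit1bl2 (-0.47 without Control 3 to 4.27), Ifitm1 (-0.14 without INK128 1 to 0.40), Irf1 (-0.66 to 0.11 without Control 3), Mx2 (-0.09 without INK128 2 to 0.61) and Isg15 (-0.46 without Control 1 to 0.68), and with length offsets for Ifitm1 (-0.58), Ifitm3 (-0.53) and Irf5 (-0.08). Isg15, at 0.00, came to -0.01 with DESeq2, RLE size factors or no filter, -0.17 with library totals and -0.41 with length offsets. The cause was not tested. No paired analysis was possible because the groups share only replicate number 1.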
